A study of Mus musculus with 8 samples.

Results

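Vim, Fn1, Acta2, Tagln, Sparc, Thbs1, Cald1, Tpm1 and Axl are genes commonly read as markers of mesenchymal or contractile cells. They were chosen by symbol, and all 9 were found among the 18671 genes of an RNA-seq table of BMEL cells, a bipotential line derived from embryonic mouse liver. The 4 pIGrhl2 samples received a plasmid that drives human GRHL2 cDNA with a Flag tag from the EEF1A1 promoter and also encodes EGFP. The 4 pcDNA samples received empty pcDNA3, and all 8 samples were harvested 48 h after transfection. The plasmids therefore differed by more than GRHL2, a single cell line was used, and the share of cells that took up plasmid is not given in the sources used here. In such bulk samples, fewer cells expressing a gene and less RNA per cell cannot be told apart.

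Epithelial cells hold together through cadherin junctions and keratin filaments, whereas mesenchymal cells rely on vimentin filaments, a fibronectin-rich matrix and actin stress fibres. Contractile genes such as Acta2 and Tagln are classical targets of serum response factor (SRF), which binds the CArG box. GRHL2 is a transcription factor of epithelia that is known for maintaining cadherin expression and for opposing mesenchymal features.

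Values are on a log2 scale, corrected for transcript length, and a difference is pIGrhl2 minus pcDNA. The depth per sample is unknown. Grhl2 itself stood at 6.24 ± 0.55 in pIGrhl2 and 4.53 ± 0.12 in pcDNA samples (SD, n = 4), with no overlap, a difference of 1.71 (limma, Benjamini-Hochberg adjusted p = 0.00100). Whether reads of the human cDNA were mapped to it was not tested. Over all genes, limma called 1957 higher and 1104 lower, so that 63.9% of calls were higher. This share was 75.9% with an equal upper quartile and 77.0% with an equal sum, but 56.7% with the replicate number as a block and 44.3% when only genes with a mean value of at least 5 were tested.

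Promoter sequence is shown first because the members differ in the short motifs near their start sites. RefSeq windows of GRCm38.p6, running from 250 bases before to 50 bases after a start, were held for 6 of the 9 genes, 7 windows in all, and not for Fn1, Tagln and Thbs1. The letters GGAATG, bound by TEAD factors, occurred on either strand in 4 of the 7 windows, those of 4 genes, against 14.7% of all 32851 windows. In the lines for Acta2, Tpm1, Cald1 and Axl the capitals mark GGAATG, and in the line for Vim they mark the TATA box letters TATAAA, searched on the gene strand and found in 8.32% of windows. TATAAA occurred in 2 of the 7 windows, of Vim and Cald1, and lay 186 bases before a start of Cald1. The AP-1 letters TGANTCA, searched on both strands, occurred in 1 of the 7 windows, of Cald1, and in 7.81% of all windows.
Acta2: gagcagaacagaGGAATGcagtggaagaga
Tpm1: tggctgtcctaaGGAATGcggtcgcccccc
Cald1: gagcatgcctagGGAATGacaggcatctgc
Axl: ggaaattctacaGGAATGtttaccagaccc
Vim: tcctaacagtgtTATAAAagcagcgccctt

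These stretches lie at chr19:34255502-34255531 on the minus strand for Acta2, at chr9:67049252-67049281 on the minus strand for Tpm1 and at chr6:34598339-34598368 on the plus strand for Cald1. Those of Axl and Vim lie at chr7:25788949-25788978 on the minus strand and at chr2:13574267-13574296 on the plus strand. The motif began 146 bases before the start in Acta2, 56 in Tpm1, 153 in Cald1, 233 in Axl and 32 in Vim. The GRHL letters AACCGGTT were in none of the members' windows and in 0.146% of all windows, and the CArG box, searched by name on both strands, was in none and in 1.63%. A match is a description of the letters and not a bound site. The letters taken as a CArG box are not listed here, and letters that depart from a pattern were not counted. The lack of a match in these windows therefore does not show the lack of a site, in Acta2 or any other member. Tagln had no window to search.

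The 9 genes did not move in a single direction. Thbs1 and Fn1 rose and Vim fell, while the other 6 did not pass the test, so that 2 of 9 were called higher and 1 of 9 lower. Over all genes the same test called 10.5% higher and 5.91% lower, or 16.4% in either direction. Among genes with a mean value of at least 5, where 8 of the 9 members lie, it called 6.69% higher and 8.38% lower. These counts change with the replicate number as a block, to 2 members higher and 4 lower, against 18.2% and 13.9% of all genes. The median difference of the members was -0.01, beside 0.01 over all genes and -0.01 over genes with a mean value of at least 5.

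**Figure D1:**
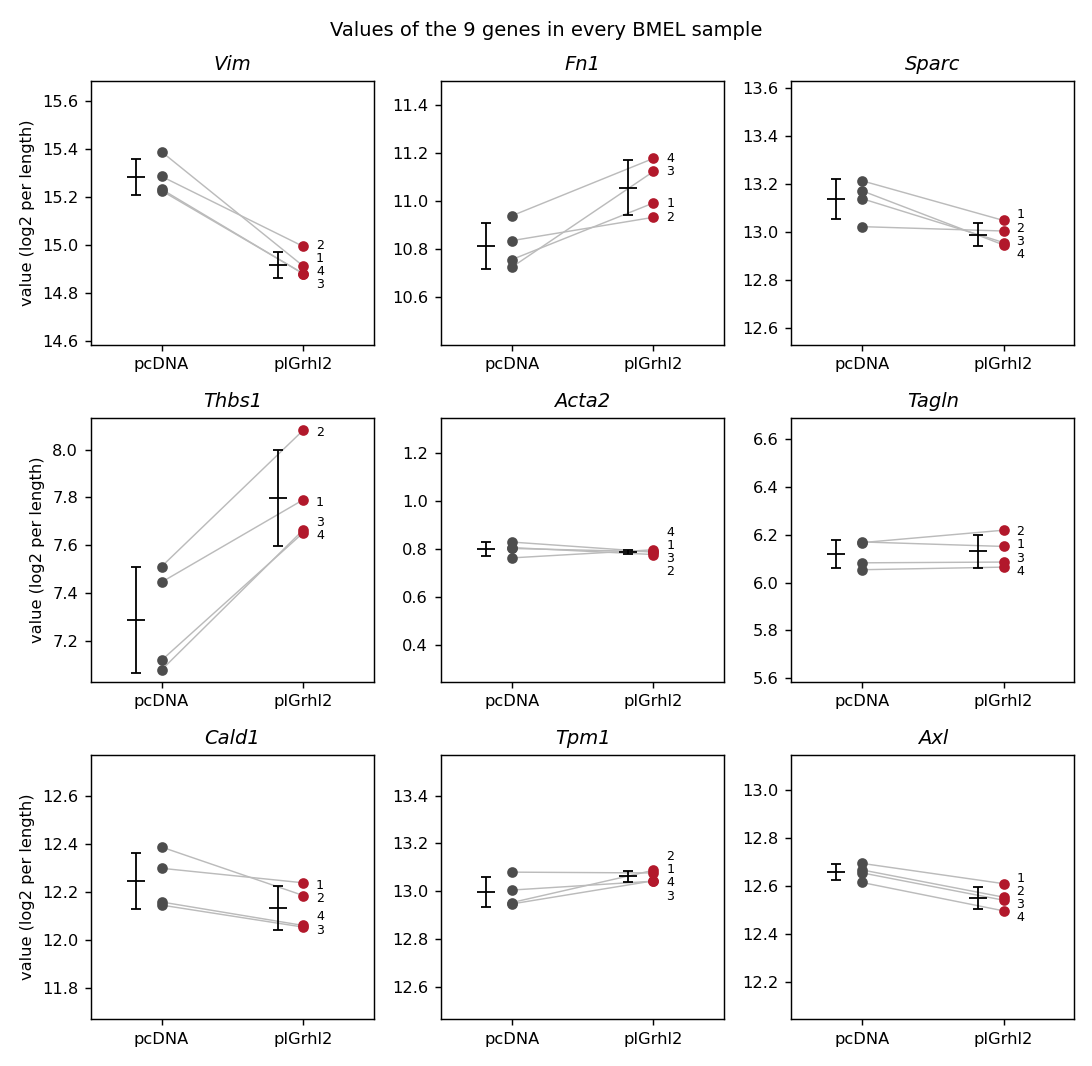
Value of each gene (y axis, log2 per length) in every pcDNA and pIGrhl2 sample. Each panel spans the same number of log2 units, grey lines join samples with the same replicate number, which stands beside the pIGrhl2 point, and bars give mean ± SD of 4 samples. Vim and Axl lie lower and Thbs1 higher in every pIGrhl2 sample than in every pcDNA sample.

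Vim encodes vimentin, the type III intermediate filament protein of mesenchymal cells (ENSMUSG00000026728, chr2:13573927-13582826, plus strand, GRCm38). Its values were 15.39, 15.29, 15.23 and 15.23 in pcDNA replicates 1 to 4 and 14.91, 14.99, 14.88 and 14.88 in the pIGrhl2 replicates. Every pIGrhl2 sample lay below every pcDNA sample. Vim fell by 0.37 on the log2 scale (SE 0.043, 95% interval -0.46 to -0.27, limma adjusted p = 0.000614), a linear change of -22.5%. The exact two-sided permutation p was 0.0286, the smallest that 4 samples against 4 allow. Its control level exceeded that of 99.9% of genes, and 1.16% of genes had a lower difference.

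Among the matrix genes, Thbs1 encodes thrombospondin 1, an adhesive matricellular glycoprotein (ENSMUSG00000040152, chr2:118111876-118127133, plus strand). Its values were 7.45, 7.51, 7.08 and 7.12 in pcDNA and 7.79, 8.08, 7.67 and 7.65 in pIGrhl2 samples. All pIGrhl2 samples were above all pcDNA samples, and replicates 1 and 2 were above 3 and 4 within both groups. Thbs1 rose by 0.51 (SE 0.12, 95% interval 0.24 to 0.78, limma adjusted p = 0.0196), or 42.2% on the linear scale. The difference was 0.46 within replicates 1 and 2 and 0.56 within replicates 3 and 4. Without pcDNA replicate 3 it was 0.44, with a limma adjusted p of 0.0528.

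Fn1 encodes fibronectin, which assembles into the matrix on which integrins pull (ENSMUSG00000026193, chr1:71585520-71653200, minus strand). Its values were 10.76, 10.83, 10.72 and 10.94 in pcDNA and 10.99, 10.93, 11.12 and 11.18 in pIGrhl2 samples. The groups overlapped only through pcDNA replicate 4 and pIGrhl2 replicate 2, and all 4 same-numbered pairs were higher with pIGrhl2. Fn1 rose by 0.24 (SE 0.068, limma adjusted p = 0.0367), an increase of 18.4%, while the exact two-sided permutation p was 0.0571. The limma call was lost on leaving out any of pcDNA replicates 1, 2 and 3 or pIGrhl2 replicates 1, 3 and 4, with limma adjusted p from 0.0552 to 0.102.

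Sparc encodes osteonectin, a collagen-binding matricellular protein (ENSMUSG00000018593, chr11:55394500-55423183, minus strand). Its values were 13.21, 13.02, 13.14 and 13.17 in pcDNA and 13.05, 13.00, 12.96 and 12.95 in pIGrhl2 samples. pcDNA replicate 2 lay among the pIGrhl2 samples, and the other pcDNA samples lay above them. The difference of -0.15 (SE 0.048) did not pass the test (limma adjusted p = 0.0617). It passed with the replicate number as a block (limma adjusted p = 0.0134) and without pcDNA replicate 2 (-0.19, limma adjusted p = 0.0130).

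Without the replicate block, limma called none of the 4 contractile genes. Acta2, the smooth muscle actin (ENSMUSG00000035783, chr19:34241090-34255590, minus strand), had values of 0.80, 0.81, 0.83 and 0.76 in pcDNA and 0.79, 0.78, 0.79 and 0.80 in pIGrhl2 samples. It was barely expressed, with only 10.3% of genes at a lower control level, and rlog values shrink differences most for such genes. Its difference was -0.01 (95% interval -0.05 to 0.02, limma adjusted p = 0.636), and its sign turned with an equal upper quartile or an equal sum.

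Tagln encodes transgelin, an actin-binding protein of smooth muscle (ENSMUSG00000032085, chr9:45929619-45936058, minus strand). Its values were 6.17, 6.17, 6.08 and 6.05 in pcDNA and 6.15, 6.22, 6.09 and 6.06 in pIGrhl2 samples. The groups overlapped throughout, with a difference of 0.01 (95% interval -0.10 to 0.12, limma adjusted p = 0.90). Of its 1988 exonic bases, 67.9% overlap the opposite-strand genes Pcsk7 and Gm48529, and under the unstranded union counting that the methods describe, reads over exons of more than 1 gene are assigned to none.

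Cald1 encodes caldesmon, which restrains actomyosin (ENSMUSG00000029761, chr6:34598500-34775473, plus strand). Its values were 12.30, 12.39, 12.14 and 12.16 in pcDNA and 12.24, 12.18, 12.05 and 12.06 in pIGrhl2 samples. The groups overlapped, yet each pIGrhl2 sample was below the pcDNA sample of its number. The difference was -0.11 (SE 0.067, limma adjusted p = 0.282), or 0.0263 for the limma adjusted p with the replicate block.

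Tpm1 encodes a tropomyosin of actin filaments (ENSMUSG00000032366, chr9:67022590-67049406, minus strand). Its values were 13.08, 12.95, 13.01 and 12.95 in pcDNA and 13.08, 13.09, 13.04 and 13.04 in pIGrhl2 samples. pcDNA replicate 1 lay within the pIGrhl2 range, and the difference was 0.07 (95% interval -0.02 to 0.16, limma adjusted p = 0.292).

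Axl encodes a receptor tyrosine kinase of the TAM family, named for Tyro3, Axl and Mertk (ENSMUSG00000002602, chr7:25757273-25788705, minus strand). Its values were 12.69, 12.67, 12.65 and 12.61 in pcDNA and 12.61, 12.55, 12.54 and 12.50 in pIGrhl2 samples. The groups did not overlap, although the nearest samples were almost equal. The difference was -0.11 (SE 0.039, limma adjusted p = 0.0862), and with the replicate block the limma adjusted p was 0.0129. Axl and Vim were the 2 members with all pIGrhl2 samples below and Thbs1 the 1 above, against 9.47% and 14.3% of all genes, or 23.8% in either direction.

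**Figure D2:**
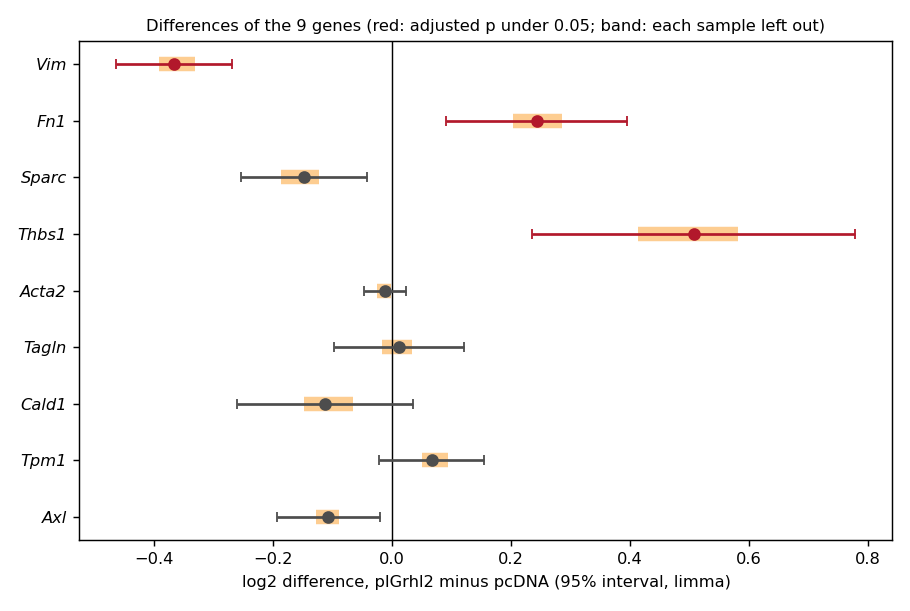
Difference of each gene, pIGrhl2 minus pcDNA (x axis, log2), with its 95% interval from limma. Vim lies at -0.37, Fn1 at 0.24 and Thbs1 at 0.51, and the other 6 genes lie between -0.15 and 0.07.

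With the replicate number as a block, 2 of the 9 genes were called higher and 4 lower (Vim, Sparc, Cald1 and Axl), against 18.2% and 13.9% of all genes. A gap between members within a sample does not depend on scaling between samples. Vim exceeded Thbs1 by 7.99 in pcDNA and by 7.12 in pIGrhl2 samples on average, a gap made of the same values as the 2 differences above and not tested.

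The control levels per length ran in the order Vim, Sparc, Tpm1, Axl, Cald1, Fn1, Thbs1, Tagln and Acta2. Sparc and Tpm1 were the only neighbours whose pcDNA ranges overlapped. Vim was 4.43-fold above Sparc, and Tagln was 39.9-fold above Acta2, with the limit on its counted bases given above. Sparc exceeded Tpm1 by 0.07 to 0.23 within every pcDNA sample, whereas its gap to Tpm1 was -0.10 to -0.03 in pIGrhl2 samples. Before the length correction, with GENCODE lengths, Tpm1 stood above Sparc over all samples (13.55 against 13.42), so their order depends on that correction. This pair was singled out after its values were seen and was not tested.

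**Figure D3:**
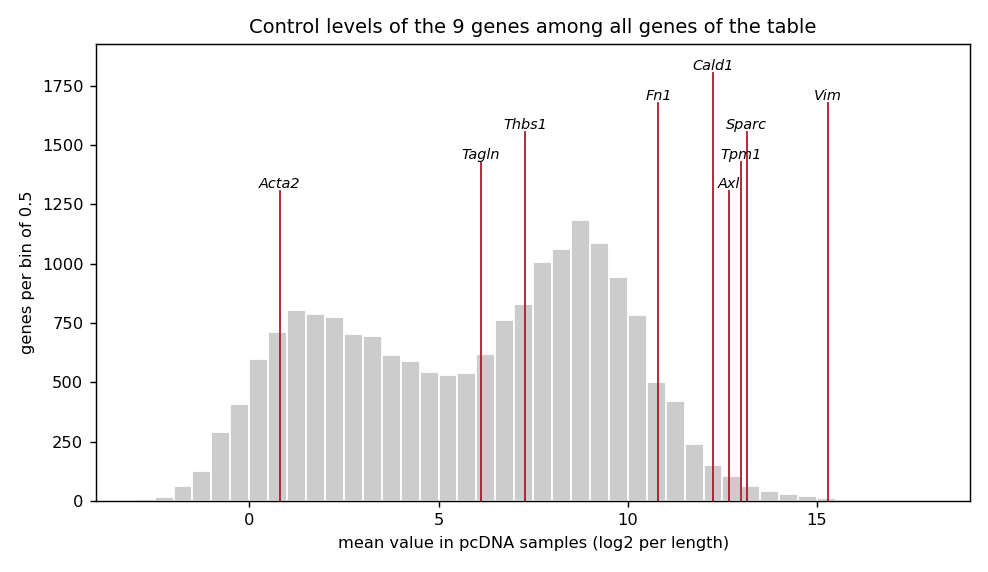
Mean level in the pcDNA samples (x axis, log2 per length) of all genes of the table, as the number of genes per bin (y axis), with a red line at each of the 9 genes. Vim, Sparc, Tpm1, Axl, Cald1 and Fn1 lie above at least 93.3% of genes, whereas Thbs1 and Tagln lie near the middle and Acta2 near the bottom.

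Genes related to the members by function were then counted. Of 37 further genes of the contractile apparatus, limma called 0 higher and 1 lower, with 4 higher and 4 lower at an unadjusted p under 0.05 and 4 higher and 7 lower with the replicate block. Over all genes, the shares were 10.5% higher and 5.91% lower, and 18.2% and 13.9% with the block, and these also stand behind the counts of the lists that follow. The called gene was Csrp1, a LIM protein of actin filaments, which fell by 0.20 (limma adjusted p = 0.0161), and the most abundant was Actb, the cytoplasmic beta-actin, with a difference of 0.14 (limma adjusted p = 0.0935, and 0.0462 under the block). Of SRF and its cofactors, 0 of 7 were called by limma, 2 were higher at an unadjusted p under 0.05, and 2 were called higher with the replicate block. Elk3, a ternary complex factor and the most abundant of them, differed by 0.21 (limma adjusted p = 0.138, and 0.00174 under the block).

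Among 5 further type III filament genes and partners, 3 were called higher and 0 lower by limma, and 0 were lower at an unadjusted p under 0.05. Prph, which encodes peripherin, rose by 0.60 and Synm, which encodes synemin, by 0.38 (limma adjusted p = 0.00150 and 0.0287). Nes, which encodes nestin and stood at -0.22 in pcDNA samples, rose by 0.07 (limma adjusted p = 0.00595). Prph and Synm thus moved opposite to Vim, from control values under 5 against 15.28 for Vim. Of 28 mesenchymal matrix genes in the table, 9 were called higher and 0 lower by limma, 0 were lower at an unadjusted p under 0.05, and the replicate block called 11 higher and 1 lower. Smoc2 and Smoc1, which encode calcium-binding matricellular proteins of the Sparc family, rose by 0.51 and 0.47 (limma adjusted p = 0.000733 and 0.000270). Fbn1, which encodes the microfibril protein fibrillin 1, rose by 0.35 and Comp, a cartilage member of the thrombospondin family, by 0.30 (limma adjusted p = 0.0295 and 0.00901). The most abundant matrix gene was Serpinh1, which encodes a collagen chaperone, with a difference of -0.05 (limma adjusted p = 0.657). Of the 9, 8 had a mean value under 5, a range in which 15.9% of all genes were called higher and 2.39% lower. The exception, named after its values were seen, was Ccn2, which encodes connective tissue growth factor and rose by 0.23 from 10.64 (limma adjusted p = 0.0218).

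Of 11 mesenchymal cell markers, 3 were called higher and 0 lower by limma, 0 were lower at an unadjusted p under 0.05, and the replicate block called 4 higher and 2 lower. Mcam, an adhesion molecule of the immunoglobulin family, rose by 0.69 and Eng, a TGF-beta co-receptor, by 0.32 (limma adjusted p = 0.000950 and 0.00424), and Pdgfrb, the platelet-derived growth factor receptor beta, by 0.11 from -0.23 (limma adjusted p = 0.00886). Cd44, the hyaluronan receptor and the most abundant of the list, differed by 0.18 (limma adjusted p = 0.0523, and 0.00207 under the block). The 2 that the block called lower, named for that reason, were Cdh2, which encodes N-cadherin, and Nt5e. Cdh2 differed by -0.16 (limma adjusted p = 0.459, and 0.00709 under the block) and Nt5e by -0.17 (limma adjusted p = 0.184, and 0.00769 under the block). The other TAM receptors rose, Tyro3 by 0.45 and Mertk by 0.27 (limma adjusted p = 0.000223 and 0.000197), while the ligand gene Pros1 differed by -0.01 (limma adjusted p = 0.976). Of 7 receptors of fibronectin and thrombospondin 1, limma called 1 higher and 0 lower, with 0 lower at an unadjusted p under 0.05 and 2 higher with the replicate block. The called gene was Sdc4, a heparan sulphate proteoglycan of focal adhesions, which rose by 0.18 (limma adjusted p = 0.0114). Itgb1, the integrin beta 1 chain and the most abundant of them, differed by 0.12 (limma adjusted p = 0.342, and 0.0144 under the block).

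**Figure D4:**
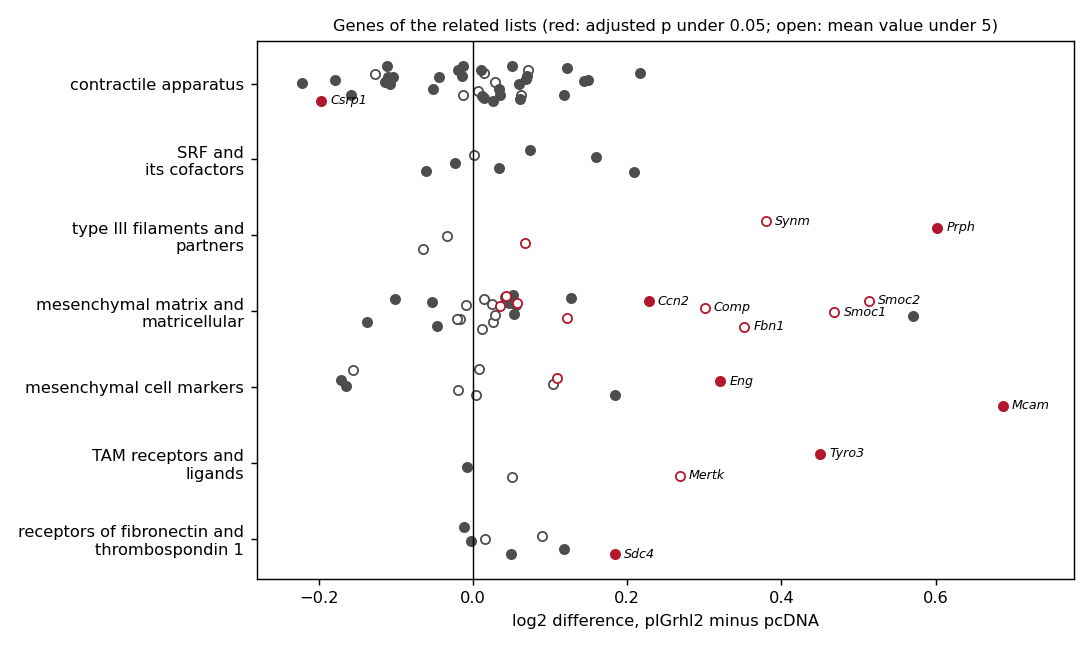
Difference of each gene in the related lists (x axis, log2, pIGrhl2 minus pcDNA), with 1 row of points for each list. Red marks a limma adjusted p under 0.05 and open points a mean value under 5, and among the called genes Csrp1 alone lies below 0.

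The labelled cell type was checked against its markers. Hepatoblast and biliary markers had a median value of 10.36, with 11 of 12 in the table, and Krt8, an epithelial keratin, was highest at 15.31 in pcDNA samples. Of these 11, limma called Cdh1, which encodes E-cadherin, higher by 0.29, Foxa1, a liver pioneer factor, higher by 0.21, and Afp, the fetal serum protein, lower at -0.21 (limma adjusted p = 0.0199, 0.0320 and 0.0125). The replicate block called 5 higher and 1 lower. Vim and Krt8 were thus both abundant in the control cells. Of 6 stellate cell and pericyte markers in the table, 4 were called higher by limma (Lhx2, Ngfr, Reln and Pdgfrb), and all 6 had mean values under 5, where 15.9% of all genes were called higher and 2.39% lower. Des, which encodes desmin and was the most abundant of the 6, differed by -0.03 (limma adjusted p = 0.716). Rgs5 differed by 0.0002 (limma adjusted p = 0.994). The summed level of the 6 was 4.51 to 4.58 in pcDNA and 4.60 to 4.64 in pIGrhl2 samples. Des and Lhx2 were the highest of the 6, at 3.50 and 2.82 in pcDNA samples. Whether the sum bears on the called genes of the mesenchymal lists, which share Pdgfrb with it, was not tested. Limma called 0 of the 6 smooth muscle, 0 of the 5 endothelial and 0 of the 4 immune markers, with 1, 3 and 1 at an unadjusted p under 0.05. With the replicate block, limma called 0 smooth muscle markers, 2 endothelial markers higher, and 1 immune marker higher and 1 lower. The most abundant of these lists were Des at 3.50, Pecam1, an endothelial adhesion molecule, at 3.33 and Cd68, a macrophage glycoprotein, at 6.08 in pcDNA samples.

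The genes whose values ran most like those of 8 of the members over the 8 samples were picked by Pearson's r among 9336 genes, as a description. The gene nearest to Vim was Pcbp1 (r = 0.989) and to Thbs1 was Cd44 (r = 0.983). For Tagln it was Fermt2 (r = 0.993), for Cald1 Ddias (r = 0.994) and for Axl Gcnt1 (r = 0.985). For Sparc it was Plrg1 (r = 0.970), for Tpm1 Ube2n (r = 0.976) and for Acta2 Ddx58 (r = 0.912). The samples share groups and replicate numbers, which such correlations carry.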

How the data were processed

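RNA-seq had been made from 8 samples, 4 pIGrhl2 and 4 pcDNA, described as independent replicates. Per the methods, reads were mapped to mm10 with HISAT2, counted on exons with HTSeq without strand, and genes with few reads were removed. For the authors' own processing, the submitters' notes give HISAT2 2.2.1, HTSeq 0.9.1 and DESeq2 1.40.2, whereas the methods give other versions of the aligner and of the normalization package. The methods describe rlog values that the authors divided by transcript length. The deposited values were read as log2 values, rlog less the log2 of length, although the authors named the table for FPKM. The methods open with public data, so that they cover these samples is an assumption. The reading rests on the values, of which 4.81% are below 0. Depth is unknown, and rlog understates differences of low genes.

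All 18671 genes were tested with limma 3.58.1 in R 4.3.3 (2 groups, mean-variance trend, Benjamini-Hochberg adjustment over all genes, adjusted p under 0.05). Exact two-sided permutation tests used scipy 1.17.1 in Python 3.11.15. The fit was also run on simulated data with independent noise in every sample, unlike the real samples, and its outcome is not used here. The members and lists were chosen with earlier results of these data known. Named were all 9 members, and of each list up to 4 called genes with the largest difference and the gene of highest level, except where stated. Likeness was computed among genes with at least the median level. The gene most like Fn1 is not reported here. Gene positions came from GENCODE M21 on GRCm38.

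Replicate numbers came from the labels. Deviations of same-numbered samples from their group means correlated at 0.474 to 0.645 in all 4 pairs, and those of differently numbered samples at -0.611 to 0.602. The latter were positive wherever both numbers were 1 or 2, or both 3 or 4, so the correlations also carry that split. The numbers were taken to pair the samples because every same-numbered pair was over 0.1. That rule cannot tell pairing by number from the split. Differently numbered pairs on the same side of the split were also over 0.1, at 0.34, 0.44, 0.50 and 0.60. pIGrhl2 replicate 3 correlated at 0.602 with pcDNA replicate 4 and at 0.549 with pcDNA replicate 3. Pairing by number is therefore an assumption of the replicate block. Alternatives were the replicate block, 2 scalings, each sample left out, no variance trend, filters at a mean of 0 and 5, and 1 added on the linear scale. A term for replicates 1 and 2 against 3 and 4 was chosen after seeing the data.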

Additional observations from a re-analysis of the deposited data

How the results depend on the processing

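Vim kept its call in all 16 alternatives (-0.39 to -0.33) and Thbs1 in 15 of them. With the replicate block, which assumes pairing by number, 3396 genes were called higher and 2589 lower, and 4 members lower. Of the members, it changed the calls of Sparc, Cald1 and Axl. The term for replicates 1 and 2 against 3 and 4, chosen after seeing the data, gave 3270 higher and 2478 lower, and 4 members lower. An equal upper quartile gave 3064 genes higher, a mean of at least 5 gave 715 higher and 899 lower, and without the variance trend 2 members were lower. Leaving out each sample in turn gave 1326 to 1848 genes higher and 690 to 1036 lower, with 0 to 2 members higher and 1 to 2 lower. Acta2 turned to 0.0100 with an equal upper quartile and 0.0115 with an equal sum. Tagln ranged from -0.018 to 0.034 when samples were left out. The causes were not tested. The median of the members ranged from -0.048 to 0.012. Depth is unknown, so no counting error could be given for any member.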

Other observations

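Replicates 1 and 2 stood apart from replicates 3 and 4 for 5 of the 9 genes in both groups, and were the higher pair in each (Vim, Tagln, Thbs1, Cald1 and Axl). Over all 18671 genes, 5850 (31.3%) stood apart in the same direction in both groups, 3354 of them with replicates 1 and 2 higher, so the split is not particular to these genes. Among the 5 members apart in both groups, Thbs1 had the widest gap, 0.38 in pcDNA and 0.28 in pIGrhl2 samples, followed by Cald1 at 0.19 and 0.16. The split of Tagln, 0.10 and 0.11, exceeded its difference between the groups. What the replicate numbers stand for is not given in the sources used here. Of 20 groups of 4 samples examined for a sample far from the others, 0 held one, where chance alone gives about 1.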
